A study of Mus musculus with 24 samples.

Results

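The genes described here encode the proteins of oxidative phosphorylation, in both of the genomes that a mouse cell carries. Members were chosen by name: symbols of complex I, III, IV and V genes of the nucleus (Nduf, Uqcr, Cox4 to Cox8 and Atp5, without pseudogene names ending in -ps) and the mitochondrially encoded mt-Nd, mt-Co, mt-Cytb and mt-Atp genes, each with at least 10 counts in 3 or more of 22 hippocampal libraries. Of 102 symbols that matched, 100 were members, among 49568 gene symbols in all. They were 88 nuclear members (36 of complex I, 8 of complex III, 18 of complex IV, 15 of complex V and 11 assembly factors and others) and 12 mitochondrially encoded members (7 of complex I, 1 of complex III, 3 of complex IV and 1 of complex V). The 2 that missed the minimum were Cox8c, without a count in these libraries, and mt-Atp8, with at most 5 counts in a library. Cox7b2 was a member but fell below the filter of the statistical fit, so 87 nuclear and 12 mitochondrially encoded members were tested.

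Poly-A RNA came from the whole hippocampus of male mice aged 12 weeks on a C57-Bl/6J background. Wild-type mice (WT) were set beside MSK1 kinase-dead mice (KD), homozygous for a point mutation in the endogenous Rps6ka5 gene that abolishes the activity of the kinase domain at the N terminus of MSK1. Animals of each genotype lived under standard housing (SH) or under environmental enrichment (EE), a large cage with a running wheel and toys in which the animals were reared from late gestation, which gave the groups WT SH, WT EE, KD SH and KD EE with 6 libraries each. WT and KD were bred as separate lines, so their animals were not littermates, and the mutation was present in every cell and at every age. The mice had no behavioural training. A point mutation leaves the transcript in place, so the count of Rps6ka5 cannot check the genotype labels. Its CPM was 22.3 to 28.3 in WT SH, 19.3 to 24.4 in WT EE, 22 to 28.2 in KD SH and 20.7 to 29 in KD EE over 22 libraries, and the groups overlapped. WT SH lay -0.04 on the log2 scale from KD SH (SE 0.07, edgeR adjusted p = 0.949) and WT EE -0.07 from KD EE (SE 0.09, edgeR adjusted p = 0.924).

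The study removed 7 of the 24 libraries. WT EE library 33B and KD EE library 34B had not passed quality control. The other 5 had correlated poorly with their groups, namely 12 from WT SH, 31B and 35A from WT EE, 2 from KD SH and 9 from KD EE. The group comparisons below used the remaining 17 libraries (5 WT SH, 3 WT EE, 5 KD SH and 4 KD EE), and the values by library used the 22 that passed quality control (6, 5, 6 and 5). Removal by agreement within groups can narrow the spread in the 17, so p-values from them can be too small. The 22 libraries held 8911999 to 56752074 counts on genes, a library with 3 counts on a gene sat at 0.0529 to 0.337 CPM (counts on a gene scaled to a fixed number of counts on genes, with TMM factors), and 14 to 18.6% of the counted reads lay outside genes. Nuclear members took 0.692 to 0.953% and mitochondrially encoded members 3.26 to 6.48% of the counts on genes. In whole tissue, fewer cells of a type and less RNA per cell cannot be told apart. No marker of neurons, dentate granule cells, CA1 and CA3, astrocytes, oligodendrocytes or microglia was at 0 throughout these libraries.

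Oxidative phosphorylation passes electrons from NADH through complexes I, III and IV to oxygen, while pumping protons across the inner mitochondrial membrane, and complex V, the ATP synthase, uses the return flow of protons to make ATP. The mitochondrial genome is transcribed as long transcripts from both strands that are then cut at the tRNAs, so its genes share promoters, whereas each nuclear gene has a promoter of its own. The mitochondrially encoded proteins belong to the core of the complexes, and the nuclear ones supply the rest of the core, the accessory subunits and the assembly factors. In the brain most ATP comes from this pathway and is spent largely on ion pumping at synapses.

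Sequence shared with the nucleus bears on what the counts of the mitochondrially encoded members hold. The counts were made from uniquely aligned reads, and parts of the mitochondrial genome have near-identical copies in nuclear chromosomes, annotated as pseudogenes. Each member was therefore cut into all of its 51-base windows, and the windows were searched in the annotated transcripts of every other gene (GENCODE, GRCm38). For mt-Co2 100% of windows were found again, for mt-Co3 99.9%, for mt-Atp6 99.5%, for mt-Nd4l 98.8% and for mt-Nd3 98.0%. The nearest copies were Gm28661, Gm28437, Gm10925, Gm10222 and Gm28438, which lie side by side on the minus strand of chromosome 1 between 24612407 and 24615565. Aligned base by base, mt-Co2 matched its copy at 681 of 681 bases, mt-Co3 at 783 of 783, mt-Atp6 at 678 of 678 and mt-Nd4l at 294 of 294. Between mt-Nd3 and Gm28438 344 of 345 aligned bases were the same, and the difference was T3C, counted from 1 at the first base of mt-Nd3. The first 60 bases of 3 such pairs are shown to let the identity be seen (GRCm38, 5′ to 3′, with the differing base in capitals). They span chrM:9459-9518 (plus strand) and chr1:24613060-24613119 (minus strand) for mt-Nd3 and its copy, chrM:7013-7072 and chr1:24615506-24615565 for mt-Co2 and its copy, and chrM:8607-8666 and chr1:24613912-24613971 for mt-Co3 and its copy.
mt-Nd3: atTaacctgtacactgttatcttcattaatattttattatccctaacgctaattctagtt
Gm28438: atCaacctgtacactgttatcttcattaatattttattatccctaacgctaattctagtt
mt-Co2: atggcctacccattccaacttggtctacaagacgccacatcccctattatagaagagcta
Gm28661: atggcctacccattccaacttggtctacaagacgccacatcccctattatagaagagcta
mt-Co3: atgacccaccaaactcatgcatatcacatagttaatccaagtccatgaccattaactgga
Gm28437: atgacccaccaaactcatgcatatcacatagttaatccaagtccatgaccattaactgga

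The other 7 members shared less. mt-Nd1 (complex I), mt-Nd6 (complex I) and mt-Cytb (complex III) had no window in another annotated transcript, mt-Nd5 had 7.22% and mt-Nd2 8%. Sharing reached 50.6% of windows in mt-Co1, the catalytic subunit of complex IV, and 62.2% in mt-Nd4, where the shared bases were 1 to 876 of 1378. Starts of genes without a shared window are given for comparison, from chrM:14145-14204 (mt-Cytb) and chrM:2751-2810 (mt-Nd1), both on the plus strand.
mt-Cytb: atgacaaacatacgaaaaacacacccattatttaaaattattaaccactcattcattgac
mt-Nd1: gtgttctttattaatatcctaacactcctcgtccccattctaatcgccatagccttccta

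The levels of the 12 mitochondrially encoded members fell into separate ranges along the same line. Per kilobase of transcript, the median over 22 libraries was 9086 CPM for mt-Co1, 5834 for mt-Cytb, 4764 for mt-Nd1, 3570 for mt-Nd2, 2527 for mt-Nd5, 2284 for mt-Nd4 and 1984 for mt-Nd6. For the members with over 90% of windows shared it was 9.48 CPM per kb for mt-Co2, 8.89 for mt-Co3, 8.13 for mt-Atp6, 3.43 for mt-Nd3 and 1.51 for mt-Nd4l, from 4 to 481 counts in a library. No library closed the gap: the lowest value of the 7 was 1606 CPM per kb (mt-Nd6) and the highest of the 5 was 75.6 (mt-Co2, in KD EE library 9). In each of the 22 libraries the summed CPM of the 5 lay below that of their nuclear copies, for example 12.2 beside 16.3 in WT SH library 15 and 46.1 beside 51.7 in WT SH library 14. In KD EE library 9, the shallowest of the 22, the sums were 148 and 208 CPM. Reads that fit a member and a copy equally well are not uniquely aligned and were not counted. The levels of these 5 symbols are therefore not levels of their RNA, and what they count cannot be told apart from what the copies count. Shared windows covered 74.9% of the bases of mt-Co1 and 63.6% of mt-Nd4. Their levels were divided by full length and can be too low for the same reason. The 7 less shared members are given beside all 12 below. mt-Atp8 had no shared window in annotated transcripts and still 0 to 5 counts; the search did not cover unannotated sequence.

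**Figure D1:**
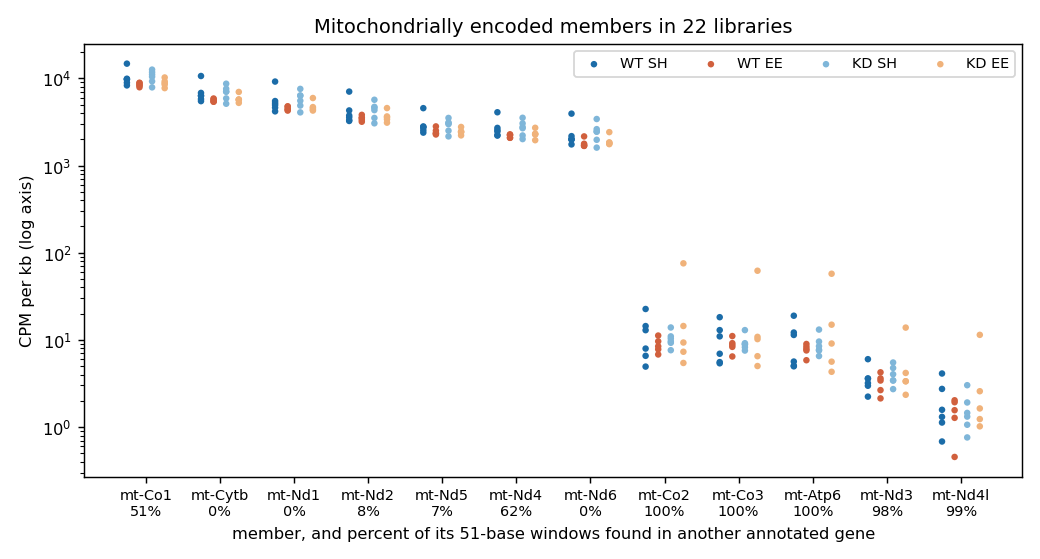
Level of each mitochondrially encoded member (CPM per kb, log axis) in 22 libraries, with 1 point per library coloured by group and the percent of its 51-base windows found in another annotated gene below its name. The 7 members with up to 62% shared windows lie between 1606 and 14756 CPM per kb, and the 5 with 98% or more lie at 75.6 or below.

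Counting ignored strand, so for mt-Nd6, which is encoded on the strand opposite to the other members, its own RNA and any RNA from the other strand cannot be told apart.

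Nuclear members were present at far lower levels per kilobase. Their median was 77.1 CPM per kb, against 3570 for the 7 less shared mitochondrially encoded members, a ratio of 46.3 between the medians. Complex V had the highest median among the nuclear groups (148 CPM per kb), from Atp5b (561), the catalytic beta subunit, to Atp5l (59.9), a subunit of the membrane part. In complex III the median was 132, from Uqcrh (188), the hinge protein of cytochrome c1, to Uqcrb (67.7). Complex IV had a median of 104 with the widest range, from Cox8a (505), the common form of subunit VIII, to Cox7b2 (0.334), a form known from testis. Complex I had a median of 65.0, from the accessory subunit Ndufb9 (158) to Ndufab1 (17.5), the mitochondrial acyl carrier protein. Assembly factors and others had a median of 13.9, from Cox7a2l (91.9), which helps to join complexes III and IV, to Ndufaf6 (5.02), both named after their values were seen. Atp5o and Atp5sl had no transcript length under their symbols and were left out of the levels per kilobase.

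**Figure D2:**
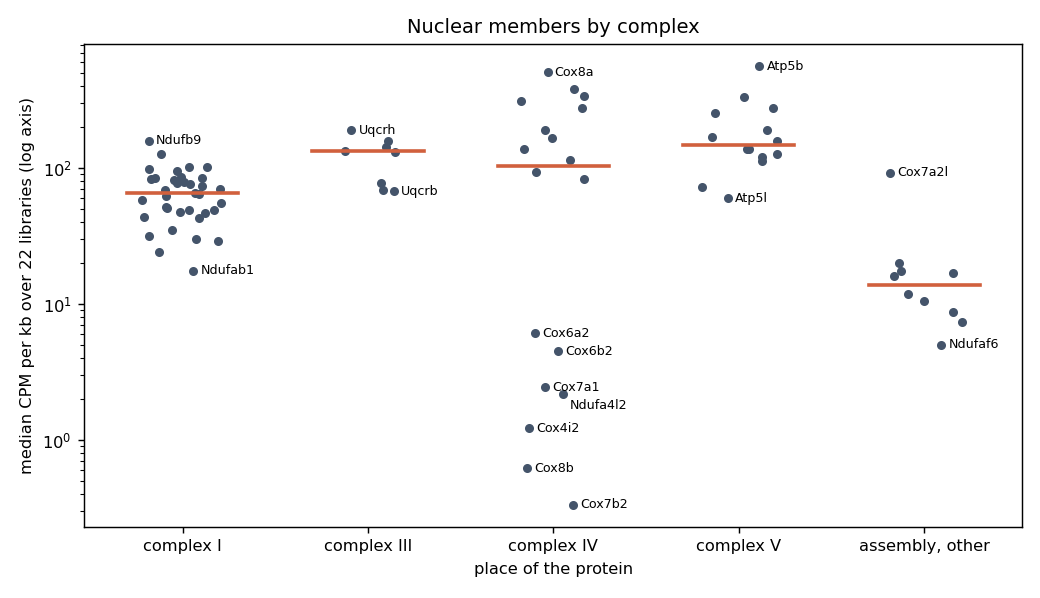
Median level of each nuclear member with a known length (CPM per kb over 22 libraries, log axis), with 1 point per gene grouped by complex and a bar at the median of the group. In complex IV, 6 tissue forms (Cox6a2, Cox6b2, Cox7a1, Cox4i2, Cox8b and Cox7b2) and Ndufa4l2 lie at 6.11 or below, while the group's median is 104.

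Several subunits of complex IV and V have paralogues that are used in different tissues, and in hippocampus the common form carried nearly all of the signal. Shares are of the summed CPM per kb of a pair, as medians over 22 libraries. Cox4i2, the form of subunit IV known from lung and from low oxygen, made up 0.359% of its pair with Cox4i1, and Cox6a2, the heart and muscle form of subunit VIa, 1.67% of its pair with Cox6a1. Testis forms made up 2.28% (Cox6b2, beside Cox6b1) and 0.369% (Cox7b2, beside Cox7b). Heart and muscle forms made up 2.03% (Cox7a1, beside Cox7a2) and 0.122% (Cox8b, beside Cox8a). Ndufa4l2, which is known to be induced by low oxygen, made up 0.647% beside Ndufa4. By contrast Atp5g1, Atp5g2 and Atp5g3, which encode the same mature subunit c of the ATP synthase, made up 34.4%, 19.9% and 45.4%. The share of Cox8b differed most by housing, with medians of 0.0811% in WT SH, 0.919% in WT EE, 0.0767% in KD SH and 0.609% in KD EE, and the groups overlapped through the removed libraries.

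Across the 22 libraries most nuclear members varied little. The SD of log2 CPM had a median of 0.14 over nuclear members, and the largest values belonged to Cox8b (1.56), Cox7b2 (0.82), Cox7a1 (0.80), Cox6b2 (0.62) and Cox4i2 (0.47), all of them tissue forms of complex IV with few counts. The 7 less shared mitochondrially encoded members had SDs of 0.23 to 0.33, and the 5 mostly shared ones 0.55 to 0.86.

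A score for each library, the mean log2 CPM over the members, was used to set the genomes beside each other. The nuclear score of WT SH ran from 5.41 over a median of 5.48 to 5.63. Means ± SD were 5.497 ± 0.081 in WT SH (n = 6), 5.502 ± 0.122 in WT EE (n = 5), 5.58 ± 0.14 in KD SH (n = 6) and 5.56 ± 0.08 in KD EE (n = 5). In WT EE the libraries stood at 5.33, 5.45, 5.52, 5.55 and 5.66, in KD SH they ran from 5.41 over a median of 5.56 to 5.80, and in KD EE they stood at 5.47, 5.47, 5.57, 5.61 and 5.66. The 4 groups lay over each other, and the extremes were 2 libraries that the study removed, 35A (5.33) and 2 (5.80).

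The mitochondrial score, over the 7 less shared members, ran in WT SH from 11.92 over a median of 12.13 to 12.92. WT EE libraries stood at 11.89, 11.90, 11.99, 11.99 and 12.06, KD SH ran from 11.82 over 12.33 to 12.65, and KD EE stood at 11.88, 11.99, 11.99, 11.99 and 12.30. Means ± SD were 12.22 ± 0.36 in WT SH, 11.97 ± 0.07 in WT EE, 12.26 ± 0.29 in KD SH and 12.03 ± 0.16 in KD EE. Both SH groups reached higher than the EE groups, and every pair of groups overlapped. The highest libraries were 14 (WT SH, 12.92) and 1 (KD SH, 12.65). EE was lower than SH by a mean difference of -0.26 in WT and -0.24 in KD, against a pooled SD within groups of 0.26. Without libraries 14 and 1 the differences were -0.12 and -0.16. The nuclear score differed between EE and SH by 0.00 in WT and -0.02 in KD, and between WT and KD by -0.08 in SH and -0.06 in EE, with a pooled SD of 0.11. In the set of 17 the nuclear differences were 0.11 in WT, where SDs were 0.05 in WT SH and 0.07 in WT EE and the groups still overlapped (5.41 to 5.54 and 5.52 to 5.66), and 0.05 in KD. There the mean over complex IV members, which include Cox8b, Cox6b2 and Cox7a1, was 4.19 in WT SH and 4.53 in WT EE. In KD it was 4.25 under SH and 4.46 under EE. Means in WT SH and WT EE were 5.66 and 5.71 for complex I, 6.36 and 6.42 for III, and 6.95 and 7.01 for V. In KD the SH and EE means were 5.73 and 5.74, 6.43 and 6.43, and 7.02 and 7.01 in that order. Complex IV differed most in both genotypes. With all 12 mitochondrially encoded members the EE minus SH difference was -0.22 in WT and 0.02 in KD, where library 9 carried the high counts of the mostly shared members, against a pooled SD of 0.41. The scores are described without a test.

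**Figure D3:**
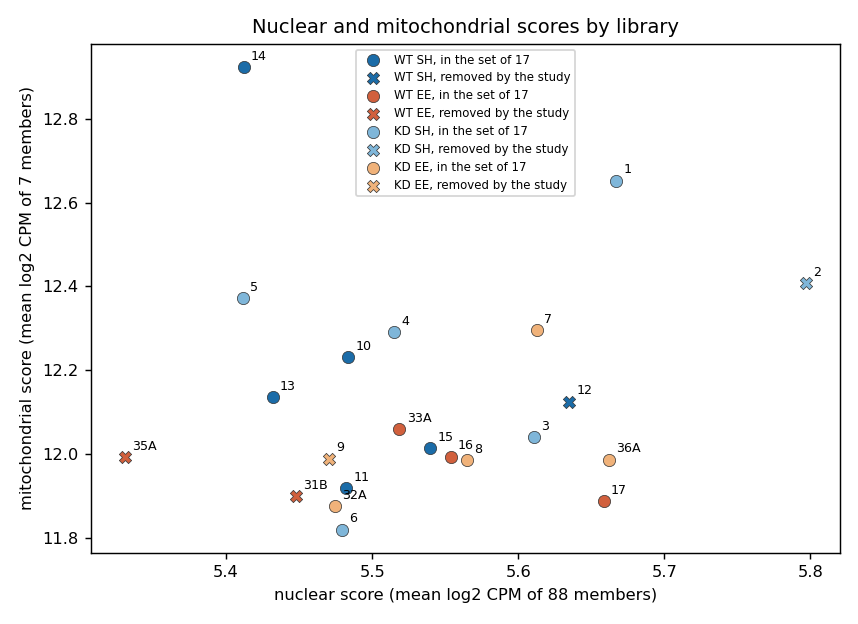
Nuclear score (mean log2 CPM of 88 members) against mitochondrial score (mean log2 CPM of 7 members), with 1 point per library, its library code beside it, circles for the set of 17 and crosses for libraries that the study removed. Over the 22 libraries r is 0.09, over the 21 without library 14 it is 0.35, and libraries 14 and 1 stand above the others.

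The nuclear and mitochondrial scores had a weak correlation over libraries, and its size rested on a single library. Pearson's r between the nuclear score and the score of the 7 members was 0.09 over 22 libraries (Spearman's rho 0.12), 0.05 over the 12 SH libraries, 0.22 over the 10 EE libraries, and -0.10 over 20 without libraries 2 and 35A, the farthest from the median nuclear score. Leaving out 1 library at a time gave -0.04 to 0.35, the highest without library 14. With all 12 mitochondrially encoded members r was -0.06 (rho -0.04), and -0.20 without the same pair of libraries. These points share library, depth and scaling, and the values are descriptions. Complex by complex, over the 7 less shared members, r was 0.13 between the nuclear and mitochondrial members of complex I, 0.18 in complex III and -0.10 in complex IV.

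Within each genome the members did move together. The 21 pairs of the 7 less shared mitochondrially encoded members had r of 0.92 to 0.99, and the 10 pairs of the 5 mostly shared ones 0.87 to 0.98, while the scores of those sets had r of 0.39 with each other. Nuclear scores of complexes I and III had r of 0.98, of I and V 0.97 and of III and V 0.96. Complex IV, which holds the variable tissue forms, had r of 0.75 with each of complexes I, III and V, and assembly factors had 0.76 to 0.77 with I, III and V and 0.35 with IV. Among single nuclear members, r with the mean of the others was highest for Ndufa8 (0.93), Atp5b (0.90) and Ndufb11 (0.90) and lowest for Cox7b2 (-0.14), Ndufaf4 (-0.10) and Ndufb2 (-0.04). It was above 0.8 in 24 members and below 0.3 in 9. Ndufa8, Ndufb11 and Ndufaf4 were named after their values were seen.

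Other lists of mitochondrial and metabolic genes were scored in the same way. The nuclear score had r of 0.88 with TCA cycle enzymes, 0.87 with the other subunits and carriers of oxidative phosphorylation (such as succinate dehydrogenase and cytochrome c), 0.86 with cytosolic ribosomal proteins, 0.85 with mitochondrial ribosomal proteins and 0.67 with glycolytic enzymes. The score of the 7 mitochondrially encoded members had r of 0.72 with the mitochondrial rRNAs, 0.69 with genes of mitochondrial transcription and RNA processing, -0.42 with glycolytic enzymes and 0.34 to 0.48 with the ribosomal and TCA cycle lists. Of 14 marker lists, the mitochondrial score had r of at least 0.5 in size with interneurons (0.67), microglia (0.59), CA1 and CA3 (-0.57) and striatum (0.51, which was -0.20 without libraries 14 and 1). The nuclear score had r of at least 0.5 with ependyma (0.69), blood (0.63), choroid plexus (0.56) and meninges (0.54). The 22 points share library and scaling here as well, and what lay behind the values was not tested.

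WT EE was compared with WT SH among 17 libraries in which housing and choroid plexus content, described below, did not overlap. Cox8b, Cox6b2 and Cox7a1, tissue forms of complex IV, were called higher in WT EE, and no mitochondrially encoded member was called. Calls required an adjusted p no higher than 0.05 over all genes tested (edgeR, Benjamini-Hochberg) and a change of at least 0.38 on the log2 scale. By this rule 3 of 87 nuclear members were called (3.45%), and 3.55% of all 18701 genes tested were called, so the members' share was near that background. At an unadjusted p under 0.05 there were 4 nuclear members (4.6%, background 13.7%) and 0 of 12 mitochondrially encoded ones, and DESeq2 called the same number, 3 nuclear and 0 mitochondrially encoded members. The median log2 fold change was 0.04 over nuclear members, with 63 higher and 24 lower, and -0.34 over the 12 mitochondrially encoded members, all lower. Over the 7 less shared of these it was -0.33, and over all genes tested 0.00. By complex the nuclear medians were 0.06 for complex I (27 of 36 higher), 0.04 for each of complexes III, IV and V, and 0.01 for assembly factors and others. The direction of the nuclear members depended on the libraries: with 22 the median was -0.03, with 27 higher and 60 lower. No member was called in that fit, where 0 of all 18482 genes tested were called. The other nuclear member with an unadjusted p under 0.05 was Atp5e, the epsilon subunit of the ATP synthase, at 0.22 (SE 0.10, edgeR adjusted p = 0.338) in the 17 libraries and 0.06 in the 22, named after its values were seen.

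The 12 mitochondrially encoded members lay lower in WT EE without passing the test. In WT SH the CPM of mt-Co1 was 15050, 12832, 15046, 22798 and 13806, and in WT EE 13638, 12925 and 12880. The WT EE libraries lay inside the range of WT SH, whose highest was library 14. The log2 fold change of mt-Co1 was -0.28 (SE 0.15, edgeR adjusted p = 0.445), of mt-Cytb -0.31 (SE 0.17, edgeR adjusted p = 0.464), and of mt-Nd4, with the lowest adjusted p of the 12, -0.33 (SE 0.17, edgeR adjusted p = 0.418). mt-Nd1, mt-Nd2 and mt-Nd6 had -0.34 each and mt-Nd5 -0.25. Among the mostly shared members mt-Co2 had -0.50 and mt-Nd4l -0.49, with SEs of 0.35 and 0.52. Without library 14 the median of the 12 was -0.10. In the fit of 22 libraries mt-Co1, mt-Cytb, mt-Nd4 and mt-Nd5 had an unadjusted p under 0.05, with changes of -0.27, -0.30, -0.31 and -0.27, and none was called. In that fit 1598 of 18482 genes tested had an unadjusted p under 0.05. Housing and the choroid plexus score, described below, did not overlap among the 17 libraries. A fit with that score as a covariate therefore cannot separate them. In it mt-Co1, mt-Cytb and mt-Nd6 had 0.14, 0.13 and 0.21 in WT (edgeR unadjusted p = 0.65, 0.72 and 0.66). In KD these members had 0.14, 0.18 and 0.17 (edgeR unadjusted p = 0.60, 0.56 and 0.67).

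In the KD comparison of EE with SH, Cox8b and Cox6b2 were called higher and no mitochondrially encoded member was called. That made 2 of 87 nuclear members (2.30%), beside 1.74% of all genes tested. Unadjusted p was under 0.05 for 3 nuclear members (3.45%, background 11.3%) and for 0 of 12 mitochondrially encoded ones, and DESeq2 called 2 and 0. Nuclear members had a median of 0.00, with 42 higher and 45 lower, and the 12 mitochondrially encoded members -0.20, with 1 higher and 11 lower. The 7 less shared of these had -0.21 and all lay lower. With 22 libraries the nuclear median was -0.04, with 26 higher and 61 lower. The CPM of mt-Co1 was 19476, 14299, 16136, 17114 and 12187 in KD SH and 15823, 13629, 11940 and 13121 in KD EE, overlapping groups with a log2 fold change of -0.21 (SE 0.14, edgeR adjusted p = 0.608). For mt-Cytb it was -0.18 (SE 0.16, edgeR adjusted p = 0.707). Without KD SH library 1 the median of the 12 was -0.08. In the fit of 22 libraries, which adds library 9 to KD EE, the mostly shared mt-Co2, mt-Atp6 and mt-Co3 stood at 1.04, 0.96 and 0.95, where they had -0.21, -0.13 and -0.22 in the 17, and none was called in either fit.

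**Figure D4:**
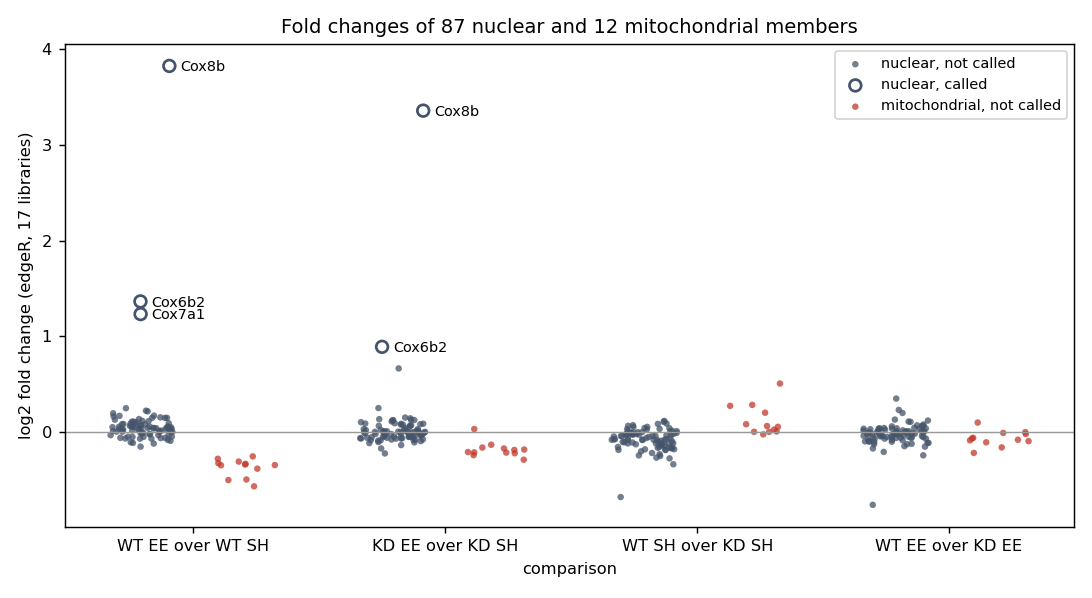
Log2 fold changes (edgeR, 17 libraries) of 87 nuclear and 12 mitochondrially encoded members in 4 comparisons, with 1 point per gene and called members ringed and named. Mitochondrially encoded members lie between -0.56 and -0.25 in WT EE over WT SH and none is called, while Cox8b reaches 3.82 and 3.36 in the EE comparisons.

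Cox8b is the heart and muscle form of subunit VIII of complex IV and is also used in brown fat. Its CPM in the 5 WT SH libraries was 0.203, 0.13, 0.0988, 0.0644 and 0.203, from 2 to 6 counts each, and in the 3 WT EE libraries 2.13, 1.85 and 2.01, from 46 to 91 counts. It was 0.104, 0.242, 0.112, 0.054 and 0.17 in KD SH, from 1 to 13 counts, and 0.689, 1.2, 1.03 and 3.10 in KD EE, from 9 to 93 counts. The EE libraries lay above the SH libraries in both genotypes without overlap. Cox8b passed the filter on low counts through the EE groups: of the 10 SH libraries fitted, 1 held 10 or more counts. Its fitted fold rests on SH values near the 3-count floor, so its size is uncertain. The log2 fold change was 3.82 in WT (SE 0.43, edgeR adjusted p = 4.4e-06) and 3.36 in KD (SE 0.41, edgeR adjusted p = 1.84e-05).

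Cox6b2 is the testis form of subunit VIb. In WT its CPM was 2.00, 1.68, 1.53, 1.51 and 1.76 under SH and 4.93, 4.18 and 4.03 under EE. KD animals had 2.18, 2.53, 1.89, 1.89 and 1.70 under SH and 3.90, 3.14, 3.54 and 4.6 under EE. Again every EE library of the 17 lay above every SH library of its genotype, and the log2 fold change was 1.37 in WT (SE 0.16, edgeR adjusted p = 8.75e-06) and 0.89 in KD (SE 0.15, edgeR adjusted p = 0.00125).

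Cox7a1 is the heart and muscle form of subunit VIIa. Its CPM was 0.678, 0.432, 0.642, 0.644 and 0.981 in WT SH and 1.49, 1.89 and 1.48 in WT EE, without overlap. KD SH had 0.967, 0.856, 0.953, 1.03 and 0.538 and KD EE 0.842, 1.0, 1.21 and 2.23, with overlap. The log2 fold change was 1.23 in WT (SE 0.29, edgeR adjusted p = 0.0134) and 0.67 in KD (SE 0.27, edgeR adjusted p = 0.325). Without WT EE library 17 the WT change was 1.12 and was no longer called.

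Markers of the choroid plexus, the secretory tissue inside the ventricles beside the hippocampus, moved with these genes. All 12 markers of the list (among them Ttr, Folr1 and Kl) were called higher under EE in both genotypes, with median log2 fold changes of 4.14 in WT and 4.15 in KD, and none was at 0 throughout. Their summed CPM was 65.6 to 815 in WT SH, 4186 to 5403 in WT EE, 45.9 to 188 in KD SH and 1046 to 5826 in KD EE. Housing and choroid plexus content did not overlap among the 17 libraries, so for Cox8b, Cox6b2 and Cox7a1 they cannot be told apart there. Markers of the meninges moved too, with 5 of 6 called higher in WT EE and summed CPM of 88.8 to 112 in WT SH and 202 to 225 in WT EE, and with 3 of 6 in KD EE. Of the other marker lists, 4 of 5 blood, 2 of 5 ependyma, 1 of 8 endothelium and pericyte, 1 of 6 thalamus and 1 of 6 striatum markers were called in WT, all higher. In KD 2 of 5 ependyma markers were called, 1 higher and 1 lower with a list median of -0.50, and 1 of 6 striatum markers was called higher. No marker of neurons, interneurons, dentate granule cells, CA1 and CA3, astrocytes, oligodendrocytes or microglia was called in either.

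The libraries that the study had removed cross housing with these markers. SH libraries 2 and 12 had summed choroid plexus CPM of 3000 and 1917, and Cox8b stood there at 1.09 and 1.38 CPM (52 and 33 counts). EE libraries 9, 31B and 35A had 216, 75.7 and 64.0, and Cox8b stood there at 0.329, 0.166 and 0.144 CPM (3, 5 and 8 counts). For Cox6b2 the corresponding values were 3.10 and 3.06 CPM in the SH pair and 1.86, 0.995 and 1.52 in the EE libraries. Cox7a1 had 1.71 and 1.59 in the SH pair and 0.110, 0.862 and 0.613 in the EE libraries. Across the 22 libraries, r of log2 CPM with the choroid plexus score was 0.93 for Cox8b, 0.89 for Cox6b2 and 0.59 for Cox7a1, which had rank 5 among the members. With the meninges score r was 0.86, 0.86 and 0.64 for these genes, so the relation was not particular to choroid plexus. In the fit of all 22 libraries no member was called, and in WT none of the 18482 genes tested was. There the log2 fold change of Cox8b was 1.93 in WT and 2.08 in KD. With the choroid plexus score as a covariate among the 17, Cox8b had 1.71 in WT (SE 0.95) and 1.45 in KD (SE 0.88), and no member was called. Housing and this score did not overlap among the 17, so that fit cannot separate them. Which cells held the 3 transcripts was not tested.

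**Figure D5:**
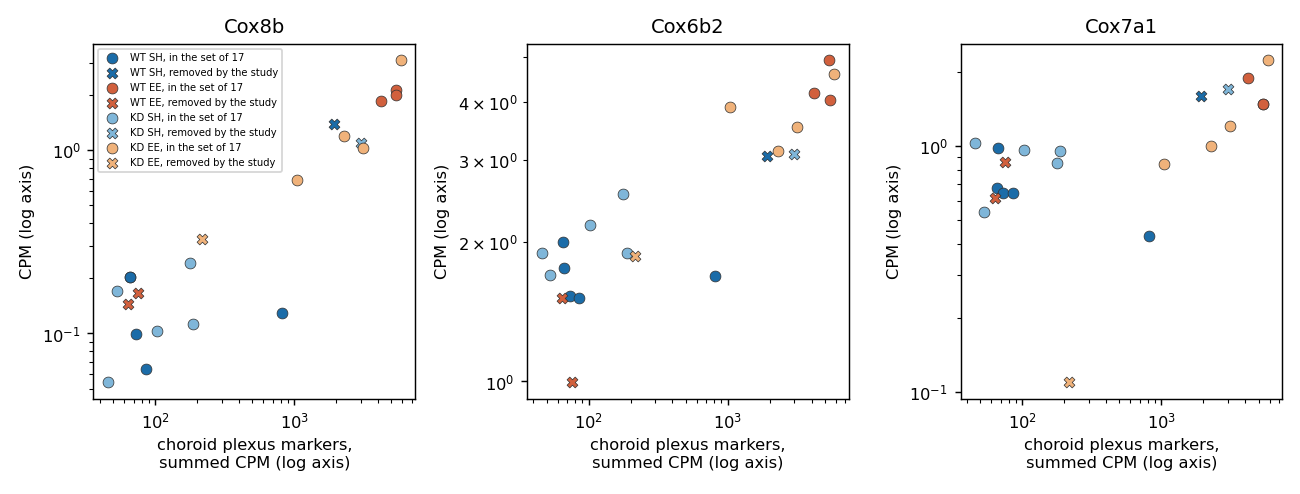
CPM of Cox8b, Cox6b2 and Cox7a1 against the summed CPM of 12 choroid plexus markers (both log axes) in 22 libraries, coloured by group, with circles for the set of 17 and crosses for libraries that the study removed. SH libraries 2 and 12 lie among the EE libraries and EE libraries 9, 31B and 35A lie at or below 216 marker CPM, with r of 0.93, 0.89 and 0.59 over log2 values.

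Between genotypes under standard housing no member was called. That was 0 of 87 nuclear and 0 of 12 mitochondrially encoded members, where 0% of all genes were called, by edgeR and by DESeq2 alike. An unadjusted p under 0.05 was seen in 9 nuclear members (10.3%, background 4.95%) and in 0 of 12 mitochondrially encoded ones. With 22 libraries it was seen in 16 nuclear members. No share over all genes is given here for that fit, so this count cannot be read as more than the background. Across nuclear members the median of WT over KD was -0.07, with 19 higher and 68 lower, and mitochondrially encoded members 0.06, with 11 higher and 1 lower. The 7 less shared had 0.03, with 6 higher and 1 lower, and with 22 libraries -0.03, with 3 higher and 4 lower. With 22 libraries the nuclear median was -0.09, with 13 higher and 74 lower. In the 17 libraries the median of the 12 was -0.13 without library 14 and without KD SH library 1 it was 0.17. The lowest p belonged to Ndufb3, an accessory subunit in the membrane arm of complex I. Its CPM was 34.7, 35.7, 37.0, 29.5 and 37.6 in WT SH and 48.0, 40.2, 39.7, 44.6 and 38.1 in KD SH. The groups did not overlap, nor did they with the removed libraries 12 (36.8) and 2 (47.0), and the log2 fold change was -0.26 (SE 0.08, edgeR adjusted p = 0.881). Ndufc1, another accessory subunit of that arm, had 19.6 to 25.8 CPM in WT SH and 24.1 to 31 in KD SH, and a change of -0.25 (SE 0.08, edgeR adjusted p = 0.881). Cox4i2 had 0.575 to 0.915 CPM in WT SH and 0.919 to 1.25 in KD SH, from 15 to 67 counts over the SH libraries, and a change of -0.68 (SE 0.23, edgeR adjusted p = 0.881). Library 12, removed from WT SH, stood at 1.46 CPM of Cox4i2, above the KD SH libraries. The other 6 with an unadjusted p under 0.05 were also lower in WT, from -0.24 for the assembly factor Ndufaf4 to -0.17 for Atp5g3, and 4 of the 9 belonged to complex V (Atp5e, Atp5g3, Atp5j and Atp5k). Ndufaf4, Atp5e, Atp5j and Atp5k were named after their values were seen. By complex the medians were -0.05 for I, -0.10 for III, -0.10 for IV and -0.04 for V, where all genes tested had 0.00. Lists of related genes lay the same way, with 61 of 77 mitochondrial ribosomal proteins, 60 of 84 cytosolic ribosomal proteins, 32 of 38 other assembly factors and 8 of 9 other subunits and carriers lower in WT.

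Between genotypes under enrichment no member was called either, by edgeR or by DESeq2, beside 0.00535% of all genes (1 gene). Unadjusted p was under 0.05 for 2 nuclear members (2.30%, background 6.4%) and 0 of 12 mitochondrially encoded ones. Medians of WT over KD were -0.02 over nuclear members, with 35 higher and 52 lower, and -0.07 over mitochondrially encoded ones, with 2 higher and 10 lower. The 7 less shared had -0.08, with 1 higher and 6 lower. With 22 libraries, which add KD EE library 9 and WT EE libraries 31B and 35A, the nuclear median was -0.07, with 11 higher and 76 lower. All 12 mitochondrially encoded members lay lower there, 3 of the mostly shared ones at an unadjusted p under 0.05. The summed CPM of the mostly shared members was 148 in library 9, against 11.7 to 30.9 in the other KD EE libraries of the 22. No share over all genes is given here for that fit, so these counts cannot be set beside a background. Cox4i2 again lay lower in WT, at 0.743, 0.844 and 0.705 CPM against 1.84, 1.2, 1.51 and 0.734 in KD EE, groups that overlapped through library 36A. Its log2 fold change was -0.76 (SE 0.28, edgeR adjusted p = 0.659). Ndufb4, an accessory subunit of complex I, had 25.7, 25.3 and 27 CPM in WT EE and 36.3, 29.5, 27.4 and 29.7 in KD EE, groups that overlapped only with the removed libraries added, with -0.24 (SE 0.11, edgeR adjusted p = 0.771). Ndufb2, from the same arm, had -0.20 (SE 0.12, edgeR adjusted p = 0.831). mt-Co1 differed by -0.06 (SE 0.16) and mt-Cytb by -0.06 (SE 0.18).

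The interaction asked whether the change with enrichment differed between WT and KD. No member passed, as 0% of all genes did, by either tool. Only Cox6b2 had an unadjusted p under 0.05 (1.15% of nuclear members, background 5.51%, and 0 of 12 mitochondrially encoded members), with an interaction of 0.47 on the log2 scale (SE 0.23, edgeR adjusted p = 0.875). Ndufb3 had 0.28 (SE 0.13) and Cox7a1 0.57 (SE 0.40), both with an edgeR adjusted p of 0.875. The medians were 0.04 over nuclear members and -0.13 over the 12 mitochondrially encoded members, all of which lay below 0 and none of which passed. The 7 less shared had -0.10. Without library 14 the median of the 12 was 0.09, and with 22 libraries the nuclear median was 0.01, with 46 higher and 41 lower. The comparisons share libraries, so their values are not independent of each other.

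The other genes of the pathway were taken from fixed lists. None of 9 other subunits and carriers, 38 assembly factors with names outside the rule, 30 genes of mitochondrial transcription, RNA processing and replication, 19 TCA cycle enzymes, 16 glycolytic enzymes, 77 mitochondrial ribosomal proteins, 84 cytosolic ribosomal proteins and 2 mitochondrial rRNAs was called in any of the 5 comparisons. The lowest adjusted p in WT EE over WT SH was 0.0181, in the first of these lists, for a change below the 0.38 required. At an unadjusted p under 0.05 in WT EE over WT SH there were 2, 1, 0, 2, 2, 4, 3 and 1 of these, in the order given, and in KD EE over KD SH 0, 1, 1, 2, 1, 6, 5 and 0. Of 16 nuclear regulators of mitochondrial genes 1 was called, Esrrb, an oestrogen-related receptor. Its CPM was 1.62 to 2.13 in WT SH, 3.54 to 4.32 in WT EE, 1.08 to 1.82 in KD SH and 1.94 to 3.81 in KD EE. The log2 fold change of Esrrb was 1.12 in WT (SE 0.20, edgeR adjusted p = 0.00092) and 1.10 in KD (SE 0.19, edgeR adjusted p = 0.00169). Over 22 libraries it was 0.66 and 0.86 and was not called.

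Promoters of the nuclear members were read from RefSeq (GRCm38.p6), from 250 bases before to 50 after the gene start, because most of these genes moved together over libraries while lacking a shared promoter. A promoter was found for 74 of the 88. The letters searched, on both strands, were GCGCATGC for NRF1, CCGGAAGT for ETS factors such as GABP, AAGATGGC for YY1 and TATAAA for the TATA box, and each was counted whether or not it overlapped another. NRF1 letters were in 11 of 74 promoters of members (14.9%) and in 3.05% of 27025 genes. YY1 letters were in 12 (16.2%, against 3.19%), ETS letters in 5 (6.76%, against 4.31%) and TATA letters in 7 (9.46%, against 15.7%). At least 1 of the NRF1, ETS and YY1 motifs was in 27 members (36.5%), against 9.91% of all genes. Median GC content was 57.3% in the members' promoters and 52.7% over all 32851 promoter windows. The genes set beside the members were not matched for GC content or expression. Members with such a motif had a median r of 0.70 with the other nuclear members over libraries and the 47 without 0.67. Stretches of 120 bases upstream of 4 members are shown as examples, with the motif in capitals: in Ndufa11 (complex I), Cox6a1 (complex IV) and Atp5g2 (complex V) a palindrome that holds the NRF1 letters once on each strand, and in Atp5h (complex V) the ETS letters on the opposite strand. Ndufa11 and Atp5h were picked as examples after the search. The windows are chr17:56717642-56717761 (plus strand), chr5:115349021-115349140 (minus strand), chr15:102671048-102671167 (minus strand) and chr11:115419920-115420039 (minus strand).
Ndufa11: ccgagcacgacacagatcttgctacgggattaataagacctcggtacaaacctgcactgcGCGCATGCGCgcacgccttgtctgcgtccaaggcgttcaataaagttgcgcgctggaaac
Cox6a1: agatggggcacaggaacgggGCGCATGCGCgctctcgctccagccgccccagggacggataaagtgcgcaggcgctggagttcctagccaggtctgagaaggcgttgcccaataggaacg
Atp5g2: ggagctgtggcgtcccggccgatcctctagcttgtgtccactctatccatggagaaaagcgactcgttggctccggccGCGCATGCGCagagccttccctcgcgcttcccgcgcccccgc
Atp5h: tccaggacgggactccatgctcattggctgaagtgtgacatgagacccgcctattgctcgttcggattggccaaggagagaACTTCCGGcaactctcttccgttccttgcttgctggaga
A match of letters is a description of the sequence and does not show that a factor binds there.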

How the data were processed

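Poly-A RNA of 24 hippocampi was sequenced as paired reads. The authors aligned them with STAR 2.5 to GRCm38 and counted uniquely aligned reads per gene with HTSeq and no strand setting. Each library's deposited file holds raw counts. A deposited table of counts divided by DESeq size factors for the whole series was not used. Groups and library codes came from the labels, and the 17-library set and the removed libraries from the study's supplementary sample lists. Nothing says whether libraries came from separate litters, so p-values measure the spread between these libraries. In the set of 17 that spread was left after removal of libraries that correlated poorly with their groups.

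Genes were fitted with edgeR 4.0.16 (filterByExpr, TMM, quasi-likelihood, 1 mean per group, 18701 genes, Benjamini-Hochberg). The same fit was also run on counts simulated from its own estimates, with changes placed only in genes of higher mean level than Cox8b. DESeq2 1.42.0 was an alternative, beside other library sets, filters, a choroid plexus covariate and leaving out single libraries. The split of mitochondrially encoded members at 90% shared windows was made after seeing the data. Reads outside genes (14 to 18.6%) were left out. Scores are mean log2 CPM (prior count 2). Lengths are those of principal transcripts (GENCODE). Depth limits genes with few counts, and intervals and floors cover counting error only. Members, marker and gene lists were chosen with earlier results of these data known.

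Named genes are the mitochondrially encoded members, members called in any of the 5 comparisons, the 3 lowest p in each, tissue pairs, the 5 largest SDs, the highest and lowest level per complex, Rps6ka5, and called genes of the other lists; others are marked as chosen after their values were seen.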

Additional observations from a re-analysis of the deposited data

Results flagged for a closer look

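Of 36 pairs of a group and a measure 7 had a library far from the others of its group by Dixon's criterion at the 95% level. For a single pair chance gives about 1 in 20, but the measures share libraries and members. The 36 pairs are therefore not independent, and the number flagged cannot be read as more than chance gives. The score of the 7 less shared mitochondrially encoded members was 12.92 in WT SH library 14 (nearest 12.23) and 12.30 in KD EE library 7 (nearest 11.99). The share of counts in mitochondrially encoded members was 6.48% in library 14 (nearest 4.23%). The score of the 5 mostly shared members was 0.79 in WT EE library 16, below the nearest at 1.44. Cox8b stood at 1.38 CPM in WT SH library 12 (nearest 0.203) and at 1.09 in KD SH library 2 (nearest 0.242), and Cox6b2 at 3.06 CPM in library 12 (nearest 2.00). Libraries 2 and 12 also had the highest choroid plexus marker sums of their groups.

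The libraries that failed quality control were outside the comparisons. Mitochondrial rRNA made up 3.63% of counts in WT EE library 33B, against 0.396 to 0.873% in the 22 others. In KD EE library 34B the 5 mostly shared mitochondrially encoded members summed to 1671 CPM and their nuclear copies to 11823 CPM, against 11.7 to 148 and 13.6 to 208 CPM in the 22 libraries. Library 34B held 16442 counts on genes in all, 40 of them on the 5 members.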

How the results depend on the processing

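Nuclear members called numbered 3 in WT EE over WT SH and 2 in KD EE over KD SH. Both counts were 0 with 22 libraries, with all 24, with the choroid plexus score as a covariate (17 or 22 libraries) and with 22 libraries less WT SH 14 and KD SH 1, an alternative chosen after seeing the data, as was the 7-member score. In WT EE over WT SH with 22 libraries 0 of 18482 genes tested were called, so the lack of calls there was not particular to the members. The share over all genes is not given for the other settings. The KD count was 1 without the 3 libraries whose codes carry a letter and 1 with at least 10 counts in every library, a filter that removed Cox8b. In the whole series every library with a lettered code was an EE library and none was SH. The labels do not say what the letter means. Leaving out single libraries gave 2 to 3 in WT and 2 to 2 in KD, and 0 to 0 in the other comparisons and for mitochondrially encoded members. With the covariate among 17 libraries, mt-Co1, mt-Cytb and mt-Nd6 had 0.14, 0.13 and 0.21 in WT and 0.14, 0.18 and 0.17 in KD. That fit cannot separate housing from the covariate. mt-Co1 was 0.11 in KD with all 24. With the covariate over 22, Cox6b2 and Cox7a1 in KD were -0.037 and -0.47, and the Cox6b2 interaction was -0.014 with 22 less 14 and 1. The cause was not tested. With all 24 libraries, which add 33B and 34B, the nuclear score differed by -0.82 (KD EE over KD SH) and 0.70 (WT EE over KD EE), the 12-member mitochondrial minus nuclear score by 1.2 and -1.36, and r of the 12-member score with the nuclear score was -0.76; it was 0.17 with log2 of summed CPM.

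Leaving out single libraries, in the order WT EE over WT SH, KD EE over KD SH, WT SH over KD SH and WT EE over KD EE, the nuclear score differences were -0.03 to 0.05, -0.06 to 0.02, -0.12 to -0.04 and -0.09 to -0.01, those of the 12-member score -0.32 to -0.05, -0.20 to 0.16, -0.20 to 0.07 and -0.41 to -0.04, those of mitochondrial minus nuclear -0.33 to -0.04, -0.20 to 0.17, -0.13 to 0.16 and -0.34 to 0.03, and r was -0.15 to 0.08. For the 7-member score the differences were -0.32 to -0.12, -0.33 to -0.16, -0.18 to 0.04 and -0.10 to 0.01, and r was -0.04 to 0.35. No paired analysis was possible because the library codes are unique and no number is shared between groups. Depth limits Cox7b2, Cox8b, Cox7a1, mt-Nd4l and Cox4i2, which had as few as 0, 1, 1, 4 and 5 counts in a library.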
